A study of Mus musculus with 3 samples.

Results

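The 10 genes described here encode matricellular and fibre glycoproteins of the extracellular matrix: the thrombospondins Thbs1, Thbs2 and Thbs4, the collagen-binding Sparc, periostin (Postn), tenascin-C (Tnc), fibronectin (Fn1), fibrillin-1 (Fbn1), the microfibril protein Mfap5 and elastin (Eln). They were taken by gene name, through every non-control probe annotated to a RefSeq transcript of one of them. This gave 13 probes, of 55678 non-control probes on the array, and 10 genes, of 21153 that could be named. Sparc had 3 probes, Tnc had 2 and each other gene had 1, and every probe was printed as 1 spot.

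Brown adipose tissue burns fuel to make heat. Its RNA, from whole tissue, was hybridised to 3 two-colour Agilent arrays. Each array held an Ad-Lkb1 sample in red (Cy5) and a wild-type (WT) littermate sample in green (Cy3), with 3 biological replicates of each genotype. LKB1, the deleted product of the gene Stk11, is a kinase upstream of AMPK. All mice were males of 10 weeks on regular chow. The strain was labelled C57BL/6J for the Ad-Lkb1 mice and C57BL/6 for the WT mice. The driver of the deletion and the cells in which it acts are not given in the sources used here. Ad-Lkb1 RNA was red on every array, so that genotype, dye and strain name cannot be told apart. All arrays were on 1 slide and in 1 scan.

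Matricellular proteins are secreted into the matrix, where they act on cell adhesion, proteases and growth factors more than they bear load. Fibronectin, the fibrillins and elastin, by contrast, assemble into fibres. In fat these genes are known mainly from stromal cells such as fibroblasts, and several of them are known to respond to TGF-beta.

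Stk11 itself had log2 ratios of Ad-Lkb1 over WT of -1.26, -1.17 and -1.17 on arrays 1 to 3 (mean -1.20 ± 0.056 SD, n = 3 arrays, limma adjusted p = 0.0106); whether its probe lies inside the deletion was not analysed here. Of the non-control features, 47.7% to 51.3% were well above background in red and 46.7% to 46.8% in green. Ratios correlated across genes, whose values do not replicate one another, with r = 0.73 between arrays 1 and 2, 0.36 between arrays 1 and 3 and 0.50 between arrays 2 and 3. A gene's level is given here as log2 of its normalized intensity in a channel, and the ratio on an array is the Ad-Lkb1 level minus the WT level. Levels are compared only within a probe. The test is limma's moderated test of the 3 ratios against 0, with Benjamini-Hochberg adjustment over all 19347 genes and unnamed features tested and a threshold of 0.05. Each array held 1 Ad-Lkb1 and 1 WT sample, so precision is limited by having 3 arrays.

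Of the 10 genes, 9 were measured, and Tnc was not above background. The filter was met in both channels by 8 of the 9, and by Thbs4 through the Ad-Lkb1 channel alone. Of these 9, 4 rose in Ad-Lkb1 tissue (Thbs1, Thbs2, Sparc and Fn1) and 0 fell, while 4.78% of all features tested were called higher, 3.91% lower and 8.68% in either direction. The median log2 ratio of the 9 genes was 0.62, or 0.66, 0.66 and 0.39 on arrays 1 to 3, beside -0.0097 for all features. The ratio was above 0 on all 3 arrays for 7 of the 9, and for the same 7 the Ad-Lkb1 levels did not overlap the WT levels. The share of all features with such non-overlapping, higher levels was 17.7%. For Thbs4, 1 of the 7, the filter itself favoured a higher Ad-Lkb1 level, which leaves 6 of 8 genes without it, and the median of those 8 was 0.74. The ratios of these 7 lay above those of 74.7% (Thbs4) to 98.0% (Thbs1) of all features, and those of Postn and Eln above 34.5% and 35.1%. In whole tissue, fewer cells of a type and less RNA per cell cannot be told apart, and the same holds for more of either.

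**Figure D1:**
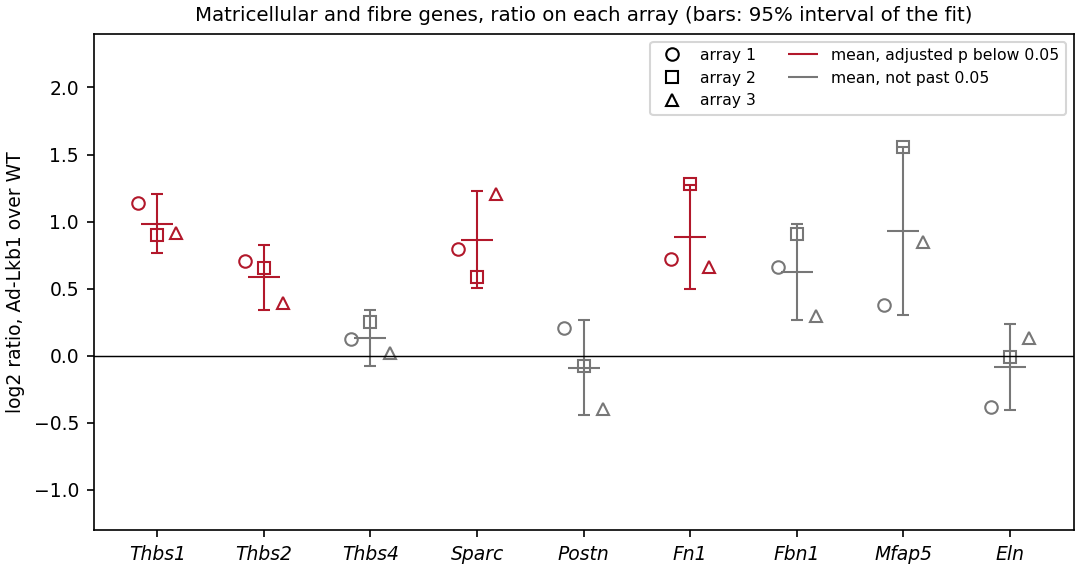
Log2 ratio of Ad-Lkb1 over WT (vertical axis) of the 9 measured genes on array 1 (circles), array 2 (squares) and array 3 (triangles). Horizontal dashes are the means and bars the 95% intervals of the fit, in red where the adjusted p was below 0.05. The intervals of Thbs4, Postn and Eln include 0, and those of the other 6 genes lie above it.

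Promoter sequence from the RefSeq table (build GRCm38.p6) was at hand for 6 of the 10 genes, and the 250 bases before the start are shown for 3 of them, chosen as 2 genes that rose (Thbs2 and Sparc) and 1 whose ratio differed in sign between arrays (Postn, for which the second of its 2 listed starts is shown). They are written 5′ to 3′ on the gene's own strand, at chr17:14694263-14694512 (minus strand) for Thbs2, chr11:55420081-55420330 (minus strand) for Sparc and chr3:54360857-54361106 (plus strand) for Postn. Capitals mark every match, on either strand, to one of 7 motifs. The TATA box was searched as TATAAA and the GC box as GGGCGG. The CCAAT box was searched by its own letters and the AP-1 site as TGANTCA. The SMAD site was searched as CAGACA, the CRE as TGACGTCA and the E-box as CACGTG.
Thbs2: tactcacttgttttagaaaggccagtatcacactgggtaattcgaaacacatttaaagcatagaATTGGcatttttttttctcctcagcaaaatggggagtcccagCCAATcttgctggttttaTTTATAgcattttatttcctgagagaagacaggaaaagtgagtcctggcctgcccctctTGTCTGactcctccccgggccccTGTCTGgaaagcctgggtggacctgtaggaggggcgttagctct
Sparc: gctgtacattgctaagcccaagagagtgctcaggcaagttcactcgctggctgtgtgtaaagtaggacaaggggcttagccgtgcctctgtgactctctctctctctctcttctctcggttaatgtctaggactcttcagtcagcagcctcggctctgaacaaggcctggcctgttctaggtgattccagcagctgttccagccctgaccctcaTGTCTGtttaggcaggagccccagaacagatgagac
Postn: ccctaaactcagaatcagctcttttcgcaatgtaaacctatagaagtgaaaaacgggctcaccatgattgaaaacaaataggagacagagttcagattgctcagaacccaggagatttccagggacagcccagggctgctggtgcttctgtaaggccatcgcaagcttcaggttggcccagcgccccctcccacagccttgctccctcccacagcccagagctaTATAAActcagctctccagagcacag
The Thbs2 window held the SMAD letters 2 times, both on the other strand, with the matches beginning 67 and 44 bases before the start, and the Sparc window held them once, 36 bases before it. The Thbs2 window also held the CCAAT letters on both strands and the TATA letters on the other strand. The Postn window held TATAAA 26 bases before the start and no other of these motifs. No matches overlapped in the 3 windows. Among the windows not shown, the SMAD letters were also in that of Thbs4, which did not pass. They were in 1 window of Tnc, which was not measured, and not in that of Fbn1. The window of the first Postn start held none of the 7 motifs. Of 32851 promoter windows of this length, 17.1% held the SMAD letters, 12.4% the TATA letters and 33.8% the CCAAT letters on either strand, beside 32.7% for the GC box, 6.75% for the AP-1 site, 1.55% for the CRE and 6.02% for the E-box. Such matches describe letters, and binding was not measured.

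Among the thrombospondins, secreted proteins that bind cell surface receptors and matrix proteins, Thbs1 had the lowest adjusted p of the 9 measured genes. Thbs1 encodes thrombospondin-1, an inhibitor of blood vessel growth that also activates latent TGF-beta and binds CD36 and CD47. Its level was 7.81, 7.51 and 7.47 in Ad-Lkb1 tissue, against 6.67, 6.61 and 6.56 in WT tissue, on arrays 1 to 3. Every Ad-Lkb1 sample lay above every WT sample by more than the spread within either genotype. Thbs1 rose 1.98-fold (log2 ratio 0.98 ± 0.13 SD, n = 3, 95% interval 0.76 to 1.20, limma adjusted p = 0.0143). Over the 11 alternatives that kept all arrays its log2 ratio ran from 0.59 with median centring to 1.84 with the scanner software's processed signals, with adjusted p from 0.00279 to 0.0279. Without array 1 or without array 2 it did not pass (log2 ratio 0.91 and 1.03, adjusted p = 0.135 and 0.0973), as no gene did then.

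Thbs2, a close relative of Thbs1 that also inhibits vessel growth, was a dim gene. Its red spot signal was 53.0, 51.5 and 41.0 in Ad-Lkb1 tissue over a red background of 16.0 to 17.0, and its green signal was 66.0, 57.5 and 62.0 in WT tissue over a green background of 45.0 to 46.0. Raw red and green signals are not on 1 scale. Both channels were nonetheless well above background on all arrays. The normalized level was 6.94, 6.76 and 6.54 in Ad-Lkb1 tissue, against 6.23, 6.10 and 6.15 in WT tissue, so the genotypes did not overlap, with the smallest gap on array 3. Thbs2 rose 1.50-fold (log2 ratio 0.58 ± 0.17 SD, n = 3, limma adjusted p = 0.0366). With an offset of 10 in place of 50 the log2 ratio was 1.09, and with the processed signals, which differ in background correction and dye normalization as well, it was 1.75. It passed under 10 of 11 alternatives (adjusted p from 0.0162 to 0.0596), and did not without the filter on dim probes.

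Thbs4, best known from tendon, muscle and nerve, had 6.17, 6.16 and 6.11 in Ad-Lkb1 tissue, against 6.05, 5.91 and 6.10 in WT tissue. In WT tissue it stood well above background on array 3 only. Although the levels did not overlap, the smallest gap between the genotypes was under the spread of the WT samples, and the log2 ratio of 0.13 ± 0.12 (SD, n = 3) did not pass (limma adjusted p = 0.35). The ratio given by the scanner software, on the log2 scale, was 0.17, 2.38 and -1.08 on arrays 1 to 3, with no common sign.

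Sparc, which binds collagen and calcium and is known from adipose tissue and bone, was measured by 3 probes. The brightest, which stands for the gene, had 15.50, 15.37 and 15.65 in Ad-Lkb1 tissue, against 14.70, 14.78 and 14.44 in WT tissue. The genotypes did not overlap, and array 3 had both the highest Ad-Lkb1 and the lowest WT level. On this probe Sparc rose 1.82-fold (log2 ratio 0.86 ± 0.31 SD, n = 3, 95% interval 0.50 to 1.23, limma adjusted p = 0.037). In a fit over all 25052 kept probes, the other probes had log2 ratios of 0.63, 0.23 and 1.21 (mean 0.69, adjusted p = 0.105) and of 0.17, 0.15 and 0.26 (mean 0.19, adjusted p = 0.15) on arrays 1 to 3. In that fit 4 of the 11 kept probes of the matricellular and fibre genes were called higher, where 4.72% of all kept probes were. All 3 Sparc probes had ratios above 0 on every array, but they differed in size, and the mean of the 3 probes (0.58) did not pass. The call of Sparc was held under 6 of the 11 alternatives, with adjusted p from 0.00582 to 0.481, and the log2 ratio was 0.59 with the processed signals and 0.18 with median centring.

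Postn, a matricellular protein of collagen-rich and injured tissue, had 8.98, 8.82 and 8.52 in Ad-Lkb1 tissue, against 8.77, 8.89 and 8.92 in WT tissue. The Ad-Lkb1 sample was the higher on array 1 and the lower on arrays 2 and 3. The log2 ratio of -0.089 ± 0.30 (SD, n = 3) was within the spread between arrays (95% interval -0.44 to 0.26, limma adjusted p = 0.712). Tnc, a large adhesion-modulating glycoprotein of developing and healing tissue, was not well above background in either channel on any array with either of its probes. Its red signals were 17.0 to 19.0 over a background of 16.0 to 17.0, and its green signals 38.5 to 47.0 over 37.0 to 45.0. A difference in Tnc was therefore not detectable on these arrays.

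**Figure D2:**
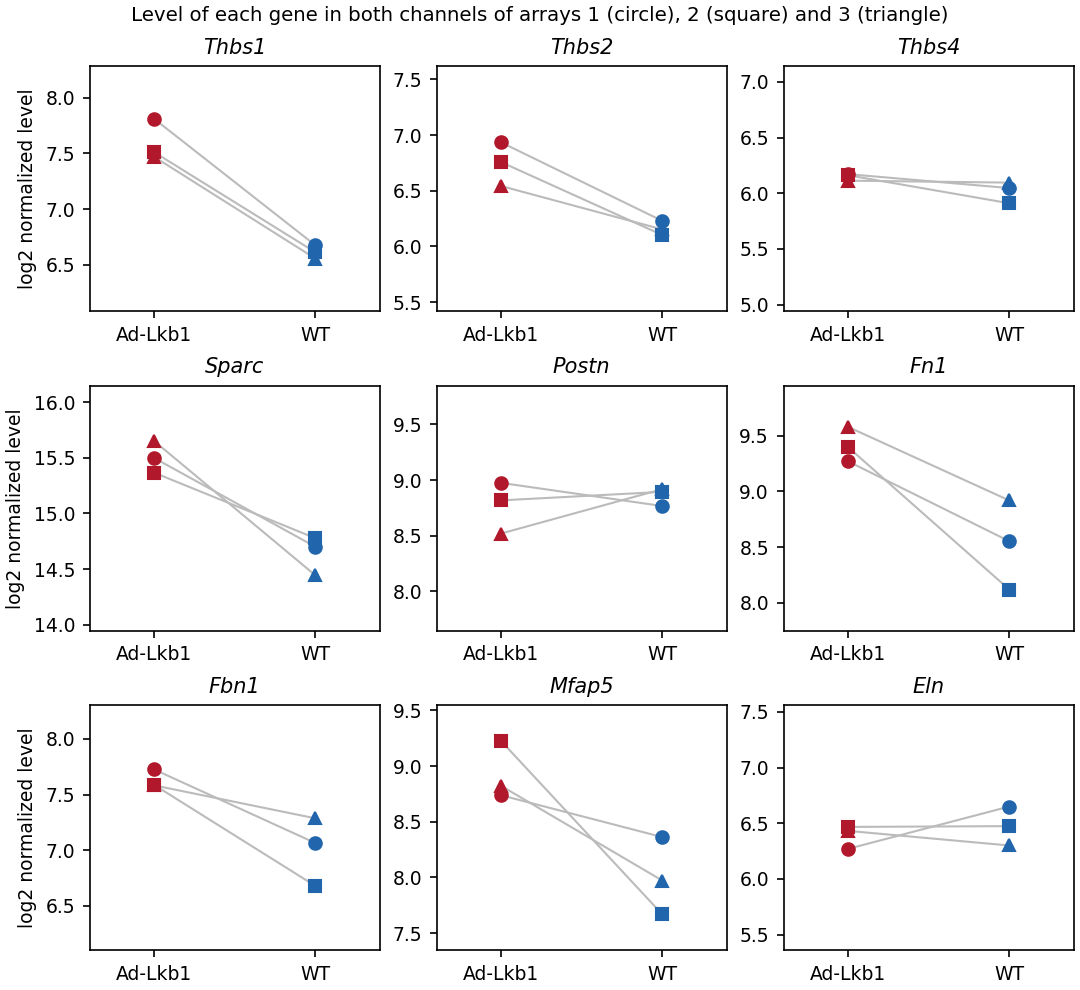
Log2 normalized level (vertical axes, all of the same span) of each of the 9 measured genes in Ad-Lkb1 tissue (red, left) and WT tissue (blue, right), with a line joining the channels of array 1 (circles), 2 (squares) and 3 (triangles). All 3 lines slope down toward WT for Thbs1, Thbs2, Thbs4, Sparc, Fn1, Fbn1 and Mfap5, and the lines cross for Postn and Eln.

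Of the genes of fibre proteins, Fn1 was the one past the threshold. Fn1 encodes the adhesive glycoprotein that integrins assemble into fibrils early in matrix formation. Its level was 9.27, 9.40 and 9.58 in Ad-Lkb1 tissue, against 8.55, 8.12 and 8.92 in WT tissue. The genotypes did not overlap, although the WT samples spread more widely (SD 0.40) than the Ad-Lkb1 samples (SD 0.16). Fn1 rose 1.85-fold (log2 ratio 0.89 ± 0.34 SD, n = 3, 95% interval 0.50 to 1.27, limma adjusted p = 0.0397). This lies close to the threshold, and Fn1 passed under 7 of 11 alternatives (adjusted p from 0.0296 to 0.366), with a log2 ratio of 0.23 under median centring.

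Fbn1, the backbone of microfibrils and a store of latent TGF-beta complexes, had 7.73, 7.59 and 7.58 in Ad-Lkb1 tissue, against 7.06, 6.68 and 7.29 in WT tissue. No WT sample reached the lowest Ad-Lkb1 sample, but the gap on array 3 was less than the spread of the WT samples. The log2 ratio of 0.62 ± 0.31 (SD, n = 3, 1.54-fold) did not pass (limma adjusted p = 0.0636). Over the alternatives that kept all arrays it ran from 0.18 with median centring to 1.29 with the processed signals. It passed when the channels were taken as separate samples, without the pairing on the array, and without array 3 (adjusted p = 0.0391 and 0.0251), over a range of 0.0251 to 0.379 across the alternatives.

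Mfap5, a small glycoprotein of fibrillin microfibrils, had 8.74, 9.22 and 8.82 in Ad-Lkb1 tissue, against 8.36, 7.67 and 7.97 in WT tissue. The genotypes did not overlap, and array 2 held both the highest Ad-Lkb1 and the lowest WT level. Its ratios of 0.38, 1.56 and 0.85 had the widest spread of the 9 genes (mean 0.93 ± 0.59 SD), and the 1.90-fold difference did not pass (limma adjusted p = 0.0854). The log2 ratio ran from 0.32 with median centring to 1.34 with the processed signals. Without the pairing it passed (adjusted p = 0.0269, the lowest over its alternatives, which reached 0.391).

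Eln, the elastic core of the fibre, had 6.27, 6.47 and 6.43 in Ad-Lkb1 tissue, against 6.65, 6.47 and 6.30 in WT tissue. The genotypes overlapped, with the Ad-Lkb1 sample lower on array 1, level with WT on array 2 and higher on array 3. The log2 ratio of -0.085 ± 0.26 (SD, n = 3, 95% interval -0.40 to 0.23) did not pass (limma adjusted p = 0.693). The gene was dim, with red signals of 23.0, 36.0 and 36.0 over a background of 18.0 in Ad-Lkb1 tissue and green signals of 89.0, 81.0 and 69.0 over 41.0 to 42.0 in WT tissue.

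The arrays ranked the genes differently. Thbs1, Thbs2 and Postn had their highest ratio on array 1, Thbs4, Fn1, Fbn1 and Mfap5 on array 2, and Sparc and Eln on array 3. The SD between arrays ran from 0.12 for Thbs4 to 0.59 for Mfap5, and among the 4 genes that rose it was lowest for Thbs1 (0.13).

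The size of these ratios varied with the background correction and the scaling. The median of the 9 genes was 0.87 above that of all features with no background subtraction, 0.90 above it with an offset of 10 and 1.00 above it with the processed signals. With median centring in place of loess, the median of all features moved to -0.42 and that of the 9 genes to 0.18, which is 0.61 above all features, as against 0.63 above them with loess. Thbs1 (0.59) and Thbs2 (0.40) were then called higher, where 2.0% of all features were, and Postn (-0.73) lower, where 50.2% were. The authors' deposited value table, with log10 ratios turned to log2, gave a median of 0.96 for the 9 genes. Thbs1 (1.76) and Thbs2 (1.68) were called higher with it, where 2.75% of all features were. Of the 9 genes, Thbs1 was the one called under all 11 alternatives that kept all arrays.

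**Figure D3:**
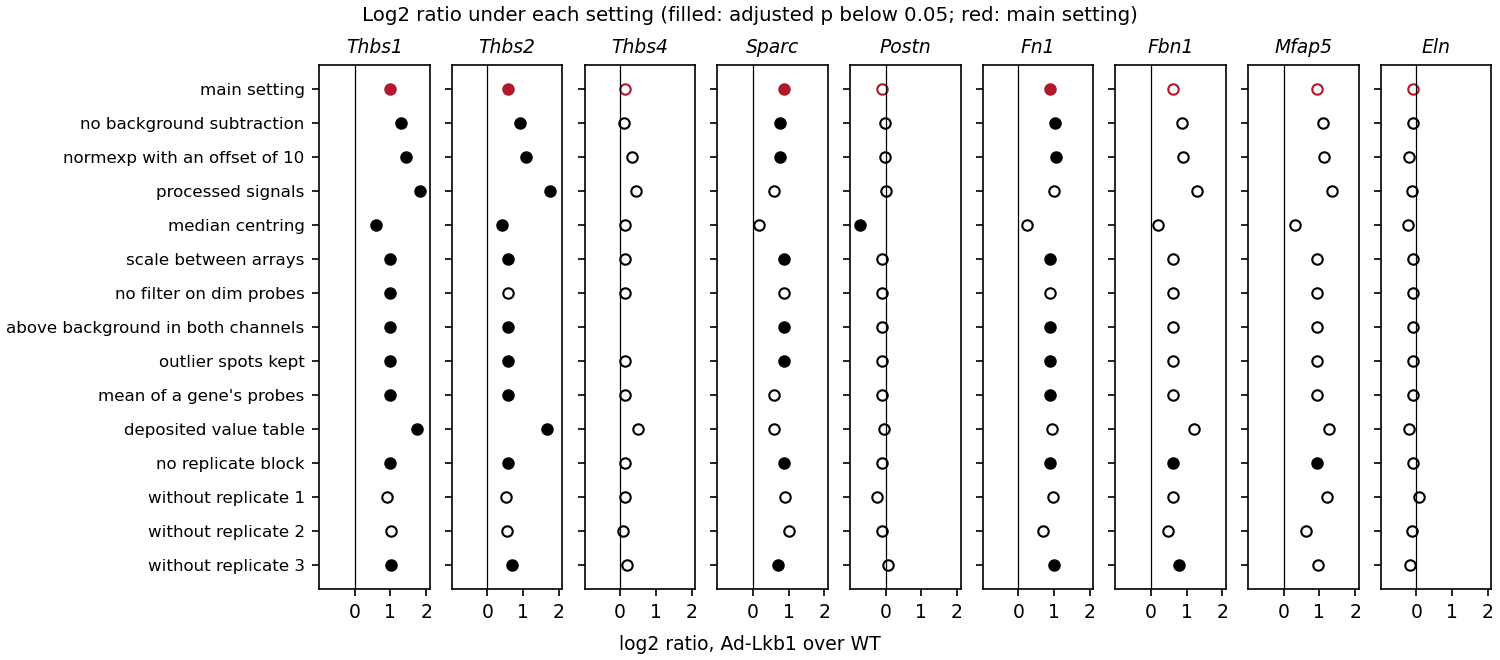
Log2 ratio of Ad-Lkb1 over WT (horizontal axes) of the 9 measured genes under the main setting (red) and each alternative (black), with filled points where the adjusted p was below 0.05. Thbs4 has no point where both channels had to be above background. Thbs1 is filled in every line but those without replicate 1 or 2, and median centring gives the lowest point for Thbs1, Thbs2, Sparc, Fn1, Fbn1 and Mfap5.

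Other genes of these families were called in both directions. Of 74 genes on 5 lists, 61 were measured, with a median log2 ratio of 0.24, and 7 rose and 3 fell. Of all features tested, 4.78% were called higher and 3.91% lower. The same shares stand beside the counts of each list below, of related genes and of markers. With median centring the medians of 4 of the 5 lists turned below 0 (-0.25 to -0.15), and that of the other thrombospondins was 0.015, each above the -0.42 of all features. With the processed signals and with the deposited value table the median of the 2 other thrombospondins was 1.12 and 1.17, above those of the 9 matricellular and fibre genes (1.01 and 0.96). Of these 2, Comp met the filter through the Ad-Lkb1 channel alone. Its log2 ratio reached 1.98 over the settings that kept all arrays, and that of Thbs3 reached 0.37. Leaving out 1 array gave 0.089 to 0.29 for the other thrombospondins, 0.29 to 0.38 for the other matricellular genes, 0.15 to 0.30 for the elastic fibre genes, 0.17 to 0.30 for the receptors and 0.11 to 0.16 for the TGF-beta genes. Of the other thrombospondins, both measured, 0 passed (2 at a median of 0.20). Thbs3 had a log2 ratio of 0.17 (limma adjusted p = 0.521), or -0.22 with median centring. Comp, known from cartilage and tendon, had a measured ratio of 1.18-fold, higher in Ad-Lkb1 tissue, and did not pass (limma adjusted p = 0.126). Comp was not well above background in WT tissue. The bound set on its ratio was also 1.18-fold, equal to the measured ratio, since its own WT level was the higher of the floors. As the interval reaches lower, that bound is not a minimum. Such bounds set the mean of the brighter channel against the dim probe's own level or the lowest level called well above background, whichever was higher, and are open to dye bias.

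Of 18 other matricellular genes, 10 were measured, 1 rose and 1 fell (median 0.37). Fstl1, a secreted follistatin-like relative of Sparc, had 9.97, 9.81 and 9.62 in Ad-Lkb1 tissue, against 8.96, 8.64 and 9.09 in WT tissue, and rose by 0.91 log2 units (SD 0.33, n = 3, limma adjusted p = 0.0367). Smoc1, also a calcium-binding relative of Sparc, had 8.88, 8.54 and 8.39 in Ad-Lkb1 tissue, against 9.77, 9.80 and 10.05 in WT tissue, and fell by 1.27 log2 units (SD 0.38, adjusted p = 0.0258). The genotypes did not overlap for either gene. Over the alternatives that kept all arrays the log2 ratio of Fstl1 ran from 0.23 to 1.05, past the threshold in 7 of 11, and that of Smoc1 from -1.94 to -1.27, past it in 9 of 11.

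Of 20 other elastic fibre and microfibril genes, 17 were measured, 3 rose and 1 fell (median 0.26). Loxl1, a lysyl oxidase that crosslinks elastin, had 9.98, 10.20 and 10.01 in Ad-Lkb1 tissue, against 8.60, 8.71 and 9.08 in WT tissue, and rose 2.41-fold (log2 ratio 1.27 ± 0.30 SD, n = 3, limma adjusted p = 0.0197). Fbln7, a fibulin, rose by 1.18 log2 units (SD 0.15, adjusted p = 0.0124) and Emilin2, of the elastin microfibril interfacer family, by 0.98 (SD 0.33, adjusted p = 0.0318). Ltbp2, a latent TGF-beta binding protein that associates with fibrillin microfibrils, had 11.75, 11.39 and 11.34 in Ad-Lkb1 tissue, against 12.87, 12.72 and 12.63 in WT tissue. It fell by 1.25 log2 units (SD 0.11, adjusted p = 0.011). Loxl1, Fbln7 and Ltbp2 passed under all 11 alternatives that kept all arrays, and Emilin2 under 7 of them.

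Among 22 receptors and binding partners of these proteins, 20 were measured, 3 rose and 0 fell (median 0.19). Egfr, a growth factor receptor, had 7.98, 8.08 and 8.07 in Ad-Lkb1 tissue, against 6.98, 7.05 and 6.85 in WT tissue (log2 ratio 1.08 ± 0.12 SD, n = 3, limma adjusted p = 0.0124). Stab1, a scavenger receptor that takes up SPARC, rose by 0.89 log2 units (SD 0.10, adjusted p = 0.0145), or 0.26 with median centring, not past the threshold. Itgb5, an integrin subunit, rose by 0.53 (SD 0.14, adjusted p = 0.0365) with loess but had -0.18 with median centring, also not past.

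All 13 genes of TGF-beta ligands, latency and readout were measured, and 0 rose and 1 fell (median 0.12). Tgfbr2, the type II TGF-beta receptor, had 10.75, 10.50 and 10.27 in Ad-Lkb1 tissue, against 11.64, 11.54 and 11.80 in WT tissue. It fell by 1.16 log2 units (SD 0.34, n = 3, limma adjusted p = 0.0258), with log2 ratios from -1.87 to -0.90 over the alternatives, and passed under 8 of 11.

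**Figure D4:**
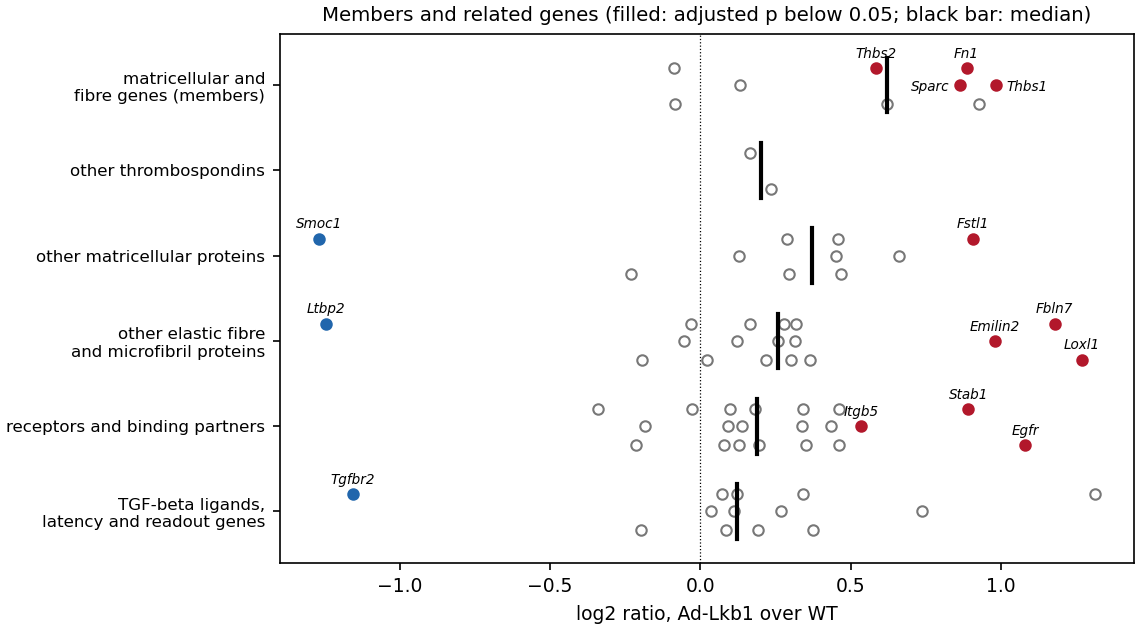
Log2 ratio of Ad-Lkb1 over WT (horizontal axis) of each measured gene of the matricellular and fibre group and of the 5 related lists (rows). Filled points, red for higher and blue for lower, had an adjusted p below 0.05, and black bars are medians. The medians of the related lists lie between 0.12 and 0.37, below that of the 9 genes (0.62). With median centring 4 of them turned below 0, and with the processed signals or the deposited value table the other thrombospondins (1.12 and 1.17) lay above the 9 genes (1.01 and 0.96). Of these thrombospondins, Comp met the filter through the Ad-Lkb1 channel alone.

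Some markers of fibroblasts and macrophages also rose in Ad-Lkb1 tissue. Brown fat markers, which bear on the tissue label, were all above background, and 5 of the 8 rose. Ucp1 had a log2 ratio of 1.48 (limma adjusted p = 0.0115) and Cidea 0.55, while Cox8b (0.38) did not pass. Over the settings that kept all arrays, the lowest log2 ratio was 0.80 for Ucp1, -0.12 for Cidea and -0.30 for Cox8b. All 10 fibroblast markers were measured, 5 rose and 0 fell, their median log2 ratio was 0.60 (0.028 with median centring), and their summed normalized signal was 31737 to 38489 in Ad-Lkb1 tissue, against 19946 to 21692 in WT tissue. Among the fibroblast markers Col1a2 had 1.01, Dcn 0.82 and Gsn 0.60, or -0.098 for Gsn with median centring. With the processed signals, median centring, no filter or the deposited value table, 1 of the 10 fibroblast markers was called. All 12 macrophage markers were measured, 6 rose and 0 fell, and their median was 1.57 (1.71, 2.21 and 0.64 on arrays 1 to 3, and 0.92 with median centring). Their summed signal was 10749 to 12273 in Ad-Lkb1 tissue, against 3325 to 6272 in WT tissue. Of the 3 brightest by mean intensity, Csf1r had a log2 ratio of 0.95 (limma adjusted p = 0.0477), C1qc 1.51 (adjusted p = 0.0525, not past) and Cd68 2.24 (adjusted p = 0.023). Over the alternatives that kept all arrays, 1 to 8 of the macrophage markers were called higher, fewest with no filter, and 1 was called lower with median centring. Without array 1 or array 2, 0 markers of either list were called, as 0 of all 19347 features were. The fibroblast and macrophage sums did not overlap between the genotypes. Of 8 platelet and megakaryocyte markers, 5 were measured and 1 rose, Pf4 (1.95), while Itga2b, Gp1ba and Gp1bb were not above background. Ppbp had a log2 ratio of 0.16, Treml1 0.034 and Gp9 0.0059, none past the threshold, Treml1 and Gp9 being named after their values were seen. The summed signal of all 5, of which Pf4 was the largest part, was 2519 to 2834 in Ad-Lkb1 tissue, against 779 to 1024 in WT tissue. The part of these cell types in the ratios of the matrix genes was not tested.

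Of 9 smooth muscle and pericyte markers, 1 rose and 1 fell (median -0.059), with sums of 6050 to 8007 in Ad-Lkb1 tissue, against 6360 to 7110 in WT tissue. Of 9 endothelial markers, 1 rose and 1 fell (median -0.24, or -0.38 to -0.099 with 1 array left out), with sums of 6800 to 9534 in Ad-Lkb1 tissue, against 9007 to 12153 in WT tissue, and of 10 adipocyte markers 1 rose and 0 fell (median -0.13), with sums of 287485 to 300398 in Ad-Lkb1 tissue, against 222906 to 254133 in WT tissue. Skeletal muscle markers, of which 5 of 10 were measured, had summed signals of 784, 14944 and 14107 in the Ad-Lkb1 samples, against 11937, 2365 and 581 in the WT samples of arrays 1 to 3. Ckm, Myh1, Myh2, Actn3 and Myoz1 were not above background. Muscle signal in Ad-Lkb1 tissue was thus lower than in WT on array 1 and higher on arrays 2 and 3. Of 6 measured Schwann cell markers, 1 rose, S100b (2.02), while Mbp had 0.18. Their sums of 20523 to 23244 in Ad-Lkb1 tissue, against 9004 to 9321 in WT tissue, did not overlap, nor did those of the adipocyte markers. Fabp4 and Cidea, the latter also listed for brown fat, made up most of the adipocyte sums. They had log2 ratios of 0.48 and 0.55, while 4 of the 10 adipocyte markers had ratios above 0. Of tendon, hepatocyte and mesothelial markers, 3 of 6, 2 of 8 and 1 of 6 were measured, and 0 passed. The part of these markers in the ratios was not tested either.

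**Figure D5:**
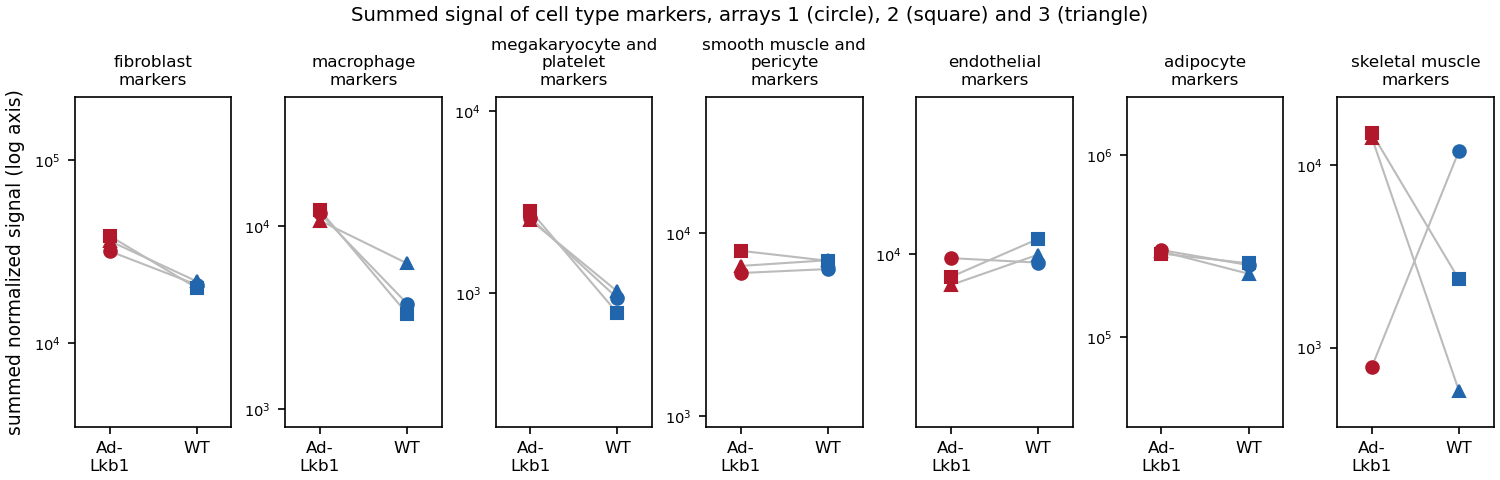
Summed normalized signal (vertical log axes, all of the same span) of the measured markers of 7 cell types in Ad-Lkb1 tissue (red, left) and WT tissue (blue, right) on array 1 (circles), 2 (squares) and 3 (triangles). Fibroblast, macrophage and platelet marker sums were higher in Ad-Lkb1 tissue on all arrays, the last of these mostly Pf4, and the skeletal muscle sum was lower in Ad-Lkb1 tissue on array 1 and higher on arrays 2 and 3.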

How the data were processed

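Per the file headers, each scanner file gives a median intensity for every spot and its local background in red and green, processed intensity values and their log10 ratio (red over green). The software was Agilent Feature Extraction 11.5, per the submitters' processing notes. The authors' deposited value table equals that log10 ratio within 0.0049 per feature, with a median of 0.0 in each column, and 26.8% to 27.8% of its non-control values are 0. The file headers name the mouse build mm9, and no array coordinates were used.

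Median signals were corrected with normexp (offset 50) and loess within arrays, with control spots at weight 0, in R 4.3.3 with limma 3.58.1. Means were planned where the files held them, and these hold medians. The lines of array 1 were in another order and were matched by feature number, and 1 incomplete feature of array 1 and 2 of array 3 were left out. Spots marked as outliers were left out. Levels are those after Aquantile normalization, which leaves the ratios as they are. A probe was kept if either channel stood well above background on all 3 arrays (25052 of 55678). Of 29795 probes with a RefSeq accession, 28025 were named through a RefSeq table (GRCm38.p6). A gene is its brightest kept probe. This gave 19347 features, 13147 of them named. The ratios were tested against 0 with lmFit and eBayes, paired by array, since each array holds 1 sample of either genotype. The procedure was tested on simulated data.

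The matricellular and fibre genes and the lists were chosen with earlier results of these data known. Named were every matricellular and fibre gene, up to 5 genes past the threshold with the smallest p of each related list (otherwise the 2 with the smallest p), and up to 3 markers per cell type by mean intensity. Some listed markers are not reported here. The alternatives were no background subtraction, an offset of 10, processed signals, median centring, scaling between arrays, no filter, a filter on both channels, outlier spots kept, the mean of a gene's probes, the deposited value table, no pairing on the array, and each array left out.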

Additional observations from a re-analysis of the deposited data

How the results depend on the processing

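With all arrays kept, the 1680 features past the threshold became 823 with the processed signals, 816 with the deposited value table, 1033 with no filter on dim probes and 10094 with median centring (387 higher, 9707 lower, or 3.8% higher as against 55.0% with loess). That share was 70.0% with the processed signals, 66.9% with an offset of 10, 64.5% with no background subtraction and 65.2% with the deposited value table. With no replicate block, so that the pairing of the samples on an array was dropped, 2936 features passed, and Fbn1 (0.62, adjusted p = 0.0391) and Mfap5 (0.93, adjusted p = 0.0269) did as well. The 4 genes past the threshold became 2 with the processed signals, 2 with the deposited value table and 1 with no filter. Thbs2 (0.58, adjusted p = 0.0596), Sparc (0.86, adjusted p = 0.0755) and Fn1 (0.89, adjusted p = 0.082) were lost with no filter, where 36794 features were tested. Sparc had 0.59 and Fn1 1.01 with the processed signals, 0.60 and 0.96 with the deposited value table and 0.18 and 0.23 with median centring, none past the threshold, and Sparc had 0.58 with the mean of its probes. Postn passed with median centring (-0.73, adjusted p = 0.0108). The median of the 9 genes was 0.90 with an offset of 10, 0.88 with no background subtraction, 1.01 with the processed signals, 0.96 with the deposited value table and 0.18 with median centring. The 10 related genes past the threshold became 6 with the processed signals, 19 with median centring and 5 with no filter. With median centring Itgb5 (-0.18), Gsn (-0.098) and Cidea (-0.12) turned below 0. The cause of these shifts was not tested.

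Leaving out 1 array at a time gave 0 to 2028 features past the threshold. It was 0 without array 1 and 0 without array 2 by limma (at an unadjusted p under 0.05, 3934 and 3565), and 2028 without array 3. Of the 9 genes 0 to 5 passed, and their median was 0.55 to 0.69. Thbs1 had 0.91 to 1.03, Thbs2 0.52 to 0.68, Sparc 0.69 to 1.00, Fn1 0.69 to 1.00, Fbn1 0.48 to 0.78, Mfap5 0.61 to 1.20 and Thbs4 0.071 to 0.19. Postn had -0.24 to 0.066 and turned above 0 without array 3, and Eln had -0.19 to 0.062 and turned above 0 without array 1. Of the related genes 0 to 17 passed. Counting all alternatives, 101 of the ratios of the 9 genes kept their direction and their side of the threshold, 18 lost the threshold, 4 gained it and 2 changed sign. These counts do not measure stability. Without array 1 or array 2 no gene passed, although 2028 features did without array 3, and several alternatives reuse the ratio of the main setting.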
